A study of Mus musculus with 14 samples.

Results

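The Kcnq1 imprinted domain of distal mouse chromosome 7 was followed through 10 of its genes, *Cdkn1c*, *Phlda2*, *Slc22a18*, *Osbpl5*, *Nap1l4*, *Kcnq1*, *Tssc4*, *Cd81* and *Ascl2* and the noncoding RNA *Kcnq1ot1*, picked by name out of 23298 genes in the table. The values come from RNA-seq of 14 mouse embryonic stem (ES) cell lines derived by reciprocal crosses of C57BL/6J and CAST/EiJ mice. With the mother named first, the BC cross (C57BL/6J mother, CAST/EiJ father) gave 3 XX, 3 XY and 2 XO lines, and the CB cross (CAST/EiJ mother, C57BL/6J father) gave 3 XX and 3 XY lines. The labels name no introduced allele and no agent given to any line. All were grown in serum and LIF on mouse embryonic fibroblast feeders, which were depleted before RNA was taken, and each line goes back to a blastocyst of its own, so that the spread within a group is the spread between independent lines. By the labels, the XO state was present only in the BC cross.

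In this domain most protein-coding genes are expressed from the maternal chromosome. The paternal chromosome transcribes *Kcnq1ot1*, a long noncoding RNA that starts inside *Kcnq1* and runs antisense to it, and on that chromosome the RNA is known to act in cis to silence genes on either side. On the maternal chromosome the *Kcnq1ot1* promoter lies in a methylated imprinting control region and is silent. *Cdkn1c*, *Phlda2*, *Slc22a18* and *Kcnq1* are imprinted widely in the embryo, whereas *Ascl2*, *Tssc4*, *Cd81* and *Osbpl5* are known to be imprinted mainly in the placenta, and *Nap1l4* sits near the edge of the domain. The values sum both parental copies of a gene, so the copy the RNA came from cannot be read from them.

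In the mm9 build (NCBIM37) the 9 protein-coding genes lie between positions 150152727 and 150942890 of chromosome 7, a stretch of 790 kb. The start of *Kcnq1ot1*, at position 150482452 on the minus strand, falls in an intron of *Kcnq1*, whose gene model runs from 150293159 to 150612955 on the plus strand. *Cdkn1c* (150644255 to 150646955, minus strand) starts 165 kb from it, *Slc22a18* (150659626 to 150685239, plus strand) 177 kb, and *Phlda2* (150687450 to 150688446, minus strand) 206 kb. Further out on the same side are *Nap1l4*, at 253 kb, and *Osbpl5*, at 460 kb. On the other side *Tssc4* starts at 227 kb, *Cd81* at 244 kb and *Ascl2* at 327 kb.

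The promoters of *Kcnq1ot1*, which makes the silencing RNA, and of *Phlda2* and *Slc22a18*, which differed most between XX and XY lines, are shown as 300 bases on the gene's own strand (250 before and 50 after the RefSeq start), with capitals for CCAAT or its reverse complement ATTGG, the box that the factor NF-Y is known to bind. *Ascl2* is added because its window holds as many boxes as that of *Kcnq1ot1*. The sequences are RefSeq promoter windows for GRCm38.p6, and each was found unchanged at a unique place on chromosome 7 of NCBIM37.
Kcnq1ot1 (chr7:150482403-150482702, minus strand, intron of Kcnq1): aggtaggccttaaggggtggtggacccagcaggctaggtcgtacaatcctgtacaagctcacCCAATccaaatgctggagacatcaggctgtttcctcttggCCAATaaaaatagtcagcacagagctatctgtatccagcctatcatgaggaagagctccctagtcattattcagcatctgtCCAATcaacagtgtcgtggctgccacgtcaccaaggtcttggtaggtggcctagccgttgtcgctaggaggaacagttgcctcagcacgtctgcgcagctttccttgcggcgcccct
Phlda2 (chr7:150688380-150688679, minus strand, upstream bases and first exon): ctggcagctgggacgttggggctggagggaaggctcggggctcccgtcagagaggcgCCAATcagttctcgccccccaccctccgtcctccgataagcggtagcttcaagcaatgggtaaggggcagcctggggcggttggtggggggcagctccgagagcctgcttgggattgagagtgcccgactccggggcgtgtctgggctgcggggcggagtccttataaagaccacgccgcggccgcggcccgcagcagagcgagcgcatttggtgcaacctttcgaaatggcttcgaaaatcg
Slc22a18 (chr7:150659444-150659743, plus strand, upstream bases and first exon): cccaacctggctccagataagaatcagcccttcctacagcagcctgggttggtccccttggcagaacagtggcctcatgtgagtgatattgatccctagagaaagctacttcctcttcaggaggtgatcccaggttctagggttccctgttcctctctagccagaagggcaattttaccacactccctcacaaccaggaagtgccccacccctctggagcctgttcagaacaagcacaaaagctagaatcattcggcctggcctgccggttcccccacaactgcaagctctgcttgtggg
Ascl2 (chr7:150155120-150155419, minus strand, upstream bases and first exon): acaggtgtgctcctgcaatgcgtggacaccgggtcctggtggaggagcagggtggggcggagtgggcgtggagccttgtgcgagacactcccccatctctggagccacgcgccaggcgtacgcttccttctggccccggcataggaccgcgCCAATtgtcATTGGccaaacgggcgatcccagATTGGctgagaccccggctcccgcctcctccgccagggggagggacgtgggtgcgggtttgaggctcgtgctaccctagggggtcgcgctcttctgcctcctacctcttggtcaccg

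The *Kcnq1ot1* and *Ascl2* windows each hold 3 CCAAT boxes, counted on both strands, and 3.37% of 32851 promoter windows of this length hold at least 3. The *Phlda2* window holds 1 and the *Slc22a18* window 0, where 37.4% of all windows hold at least 1. The CG dinucleotide, the site of DNA methylation, occurs 26 times in the *Phlda2* window, 23 times in that of *Ascl2*, 9 times in that of *Kcnq1ot1* and 2 times in that of *Slc22a18*, and the median over all windows is 7. *Phlda2* also has a TATAAA box, found on either strand in 13.6% of windows. Windows for *Cd81*, *Tssc4* and *Osbpl5* were read as well, so that 7 of the 10 genes had an entry. *Cdkn1c*, *Nap1l4* and *Kcnq1* had none. These matches describe letters only.

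Values are given as deposited. They are reads per gene that the authors had brought to 1 scale for all lines, so that the sums over genes ranged only from 2.82e+07 to 3.07e+07. Within a line 97.8% to 98.4% of the values above 0 and under 1000 steps lie within 0.02 of a whole multiple of a smallest step of 0.407 to 2.46. Taking that step as a read puts the depth at about 11904424 to 69646348 reads. Pluripotency genes (8 listed, among them *Pou5f1* and *Nanog*) were at a mean log2(value + 5) of 13.1 to 14.0 in every group. Of the lines labelled CB XY, numbers 2 and 3 had a mean log2 level of 4 Y-linked genes of 3.96 and 5.67, against 7.85 in CB XY 1 and 7.25 to 8.82 in the BC XY lines. The XO lines were at 5.09 and 5.26 and the CB XX lines at 4.42 to 6.11. CB XY 2 thus lay below, and CB XY 3 among, lines labelled as having no Y. Calls that rest on CB XY 2 and CB XY 3 are therefore given with and without them. Feeder-type (mesenchymal) transcripts were uneven. The summed value of 22 such genes was 83308 to 224111 in the BC XX lines and 8965 to 40004 in the other 11, and none of the 22 was at 0 in all lines of a group. The same BC XX lines had Y-linked levels of 6.67 to 8.25. The BC XX lines and the mesenchymal level therefore move together, and calls that involve the BC XX lines are given also at equal mesenchymal level, with that level as a covariate. Mean mesenchymal log2 levels were 10.5 to 11.8 in the BC XX lines and 7.88 to 9.76 in all others, so no level was shared. In comparisons of the BC XX group such values are therefore extrapolated, and a call lost there does not show that a difference is absent. In bulk RNA more cells of a type and more RNA per cell cannot be told apart.

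Per kilobase of exon, *Cd81*, a tetraspanin of the cell surface, and *Nap1l4*, a histone chaperone, were the most abundant members, at mean values of 2161 and 2000 over the 14 lines. *Phlda2* followed at 584, *Tssc4* at 314 and *Cdkn1c* at 198, then *Ascl2* at 58.2, *Osbpl5* at 55.1, *Slc22a18* at 20.2 and *Kcnq1* at 2.0. *Kcnq1ot1* has no exon length here and is given as a value only, 13404 to 27586. The order per kilobase depended on the sex complement. In XX lines *Tssc4* (297) stood above *Phlda2* (206) and *Cdkn1c* (113), and in XY lines *Phlda2* (829) stood above *Tssc4* (316) and *Cdkn1c* (272). The spread over all lines was smallest for *Nap1l4*, with a coefficient of variation of 7.53%, and between 21.1% and 32.1% for *Cd81*, *Tssc4*, *Kcnq1ot1* and *Ascl2*. It was 51.4% to 89.7% for *Cdkn1c*, *Osbpl5*, *Phlda2* and *Slc22a18*.

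**Figure D1:**
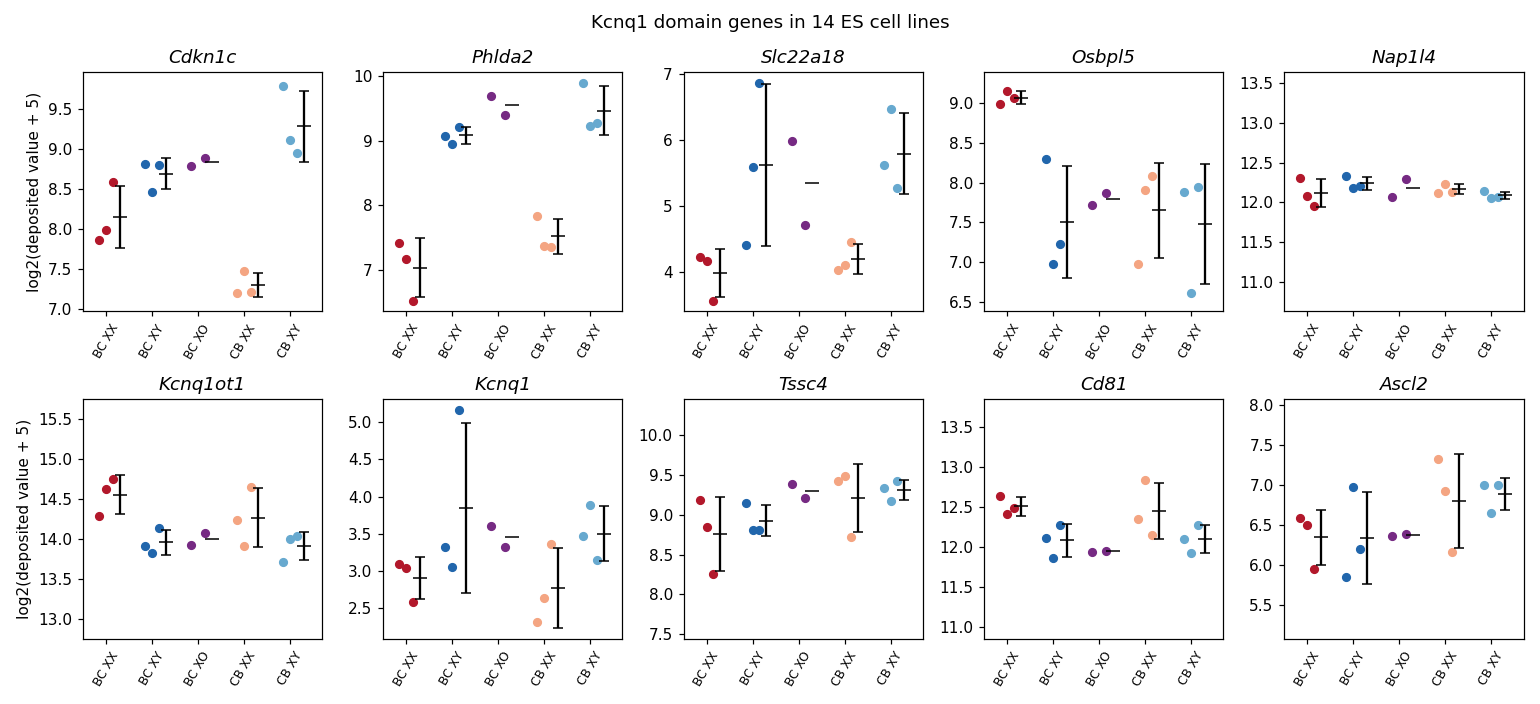
Level of each gene of the Kcnq1 domain as log2(deposited value + 5) on the vertical axis, with 1 point per line, coloured by cross and sex complement. The black mark beside each group is its mean and the bar its SD (3 lines, no bar for the 2 XO lines). The Phlda2 points of the 6 XX lines, at 87.4 to 223 before the log, lie below those of the 8 XY and XO lines, at 488 to 945.

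To ask whether the domain differs with the sex chromosomes, the 6 XX lines were compared with the 6 lines labelled XY across both crosses. The neighbouring genes *Cdkn1c*, *Slc22a18* and *Phlda2* were lower in XX lines, and no member was called higher. At an FDR of 0.05 (limma, Benjamini-Hochberg over all genes tested), 3 of 9 members tested were called, and 5.21% of the 15311 genes tested were (1.99% lower and 3.21% higher in XX lines). The members' median log2 fold change was −0.04, and that of all genes −0.03. *Kcnq1* stayed below the filter on low values.

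*Phlda2* encodes a small pleckstrin homology domain protein that restrains placental growth. It was 166, 139 and 87.4 in the BC XX lines and 223, 161 and 158 in the CB XX lines. The XY lines had 535, 488 and 590 (BC) and 945, 592 and 614 (CB), and the XO lines 817 and 671. The highest XX line lay below the lowest XY line, a separation seen in 3.52% of genes tested. Mean values were 156 ± 43.9 (SD, n = 6) in XX and 627 ± 162 (SD, n = 6) in XY lines, 3.98-fold lower in XX lines on the log2(value + 5) scale (log2 fold change −1.99, SE 0.22, adjusted p = 0.000705 by limma). It was the member called at an FDR of 0.01, which 1.20% of genes passed. Without CB XY 2 and CB XY 3 the log2 fold change was −2.0 (adjusted p = 0.00351), and at equal mesenchymal level −1.69 (adjusted p = 0.0055).

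*Cdkn1c* encodes p57, an inhibitor of cyclin-dependent kinases that holds cells out of the cycle. Its values were 227, 249 and 379 in the BC XX lines, against 445, 348 and 439 in the BC XY lines and 438 and 467 in the XO lines. In the CB cross they were 142, 172 and 143 in XX and 879, 548 and 489 in XY lines. BC XX 3, the line with the highest mesenchymal level, reached into the BC XY range, and the CB groups stood apart. Over both crosses XX lines had 219 ± 90.0 (SD, n = 6) and XY lines 525 ± 185 (SD, n = 6), a log2 fold change of −1.27 (SE 0.26, adjusted p = 0.0158 by limma). The call was lost without CB XY 2 and CB XY 3 (−1.25, adjusted p = 0.0722). At equal mesenchymal level it was −1.80 (adjusted p = 0.00544).

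*Slc22a18*, an organic cation transporter-like membrane protein, was the least abundant of these neighbours. It was 13.7, 13.0 and 6.88 in BC XX and 11.4, 12.2 and 16.9 in CB XX lines. In XY lines it was 16.2, 43.2 and 112 (BC) and 44.4, 83.5 and 33.8 (CB), and in XO lines 58.2 and 21.3. The XX lines were low and alike, the others ranged widely, and BC XY 1 at 16.2 overlapped CB XX 3 at 16.9. The log2 fold change was −1.61 (SE 0.35, adjusted p = 0.0177 by limma). It lost the call without CB XY 2 and CB XY 3 (−1.53, adjusted p = 0.0677) and at equal mesenchymal level (−1.14, adjusted p = 0.162). All 14 values exceeded 3 reads.

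*Kcnq1ot1*, the antisense RNA, was abundant in every line. The XX lines held 20075, 25424 and 27586 (BC) and 19321, 15483 and 25721 (CB). The XY lines held 15493, 14558 and 18027 (BC) and 13404, 16406 and 16770 (CB), and the XO lines 15609 and 17254. All XX lines except CB XX 2 lay above every other line. Means were 22268 ± 4684 (SD, n = 6) in XX and 15777 ± 1652 (SD, n = 6) in XY lines, a log2 fold change of 0.48 (SE 0.14) that missed the threshold (adjusted p = 0.0684 by limma). With the cross as a covariate it passed (adjusted p = 0.0392 by limma), as it did without CB XX 1 (0.0435) or CB XX 2 (0.0286). Calls over all genes were then 1697 of 15311, 1746 of 15445 and 501 of 15413, against 797 in the main fit. At equal mesenchymal level *Kcnq1ot1* was at 0.33 (adjusted p = 0.414). Within a line the value of *Kcnq1ot1* over that of *Phlda2* was 86.6 to 316 in XX, 14.2 to 30.6 in XY and 19.1 to 25.7 in XO lines.

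Of the remaining members, none was called over the 12 lines. *Cd81* had 6360, 5424 and 5719 in BC XX, 5198, 7305 and 4551 in CB XX, 4405, 3728 and 4950 in BC XY and 4366, 3866 and 4933 in CB XY lines, with 3926 and 3946 in XO lines (log2 fold change 0.39, SE 0.12, adjusted p = 0.0860 by limma). *Osbpl5*, an oxysterol-binding protein-related lipid transfer gene, had a log2 fold change of 0.87 (SE 0.39, adjusted p = 0.199 by limma). It passed without CB XX 1 (1.14, adjusted p = 0.0418), where 1746 of 15445 genes were called. *Nap1l4* was at −0.03 (SE 0.09, 95% interval −0.22 to 0.17), with 3964 to 5050 in XX and 4264 to 5154 in XY lines. *Tssc4* was at −0.13 (SE 0.21), with 301 to 712 in XX and 444 to 680 in XY lines. *Ascl2*, a transcription factor of the trophoblast lineage, was at −0.04 (SE 0.28), with 57.0 to 155 in XX and 52.5 to 123 in XY lines. *Kcnq1*, a potassium channel subunit, was near the limit of detection, at 0 to 5.33 in XX lines and 3.33 to 9.82 in XY and XO lines apart from BC XY 3, which had 30.8. Its values passed 3 reads in 9 of 14 lines. *Kcnq1ot1* overlaps it on the other strand, as *Trpm5* overlaps *Tssc4*, and the strand setting of the counting is not given in the sources used here.

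**Figure D2:**
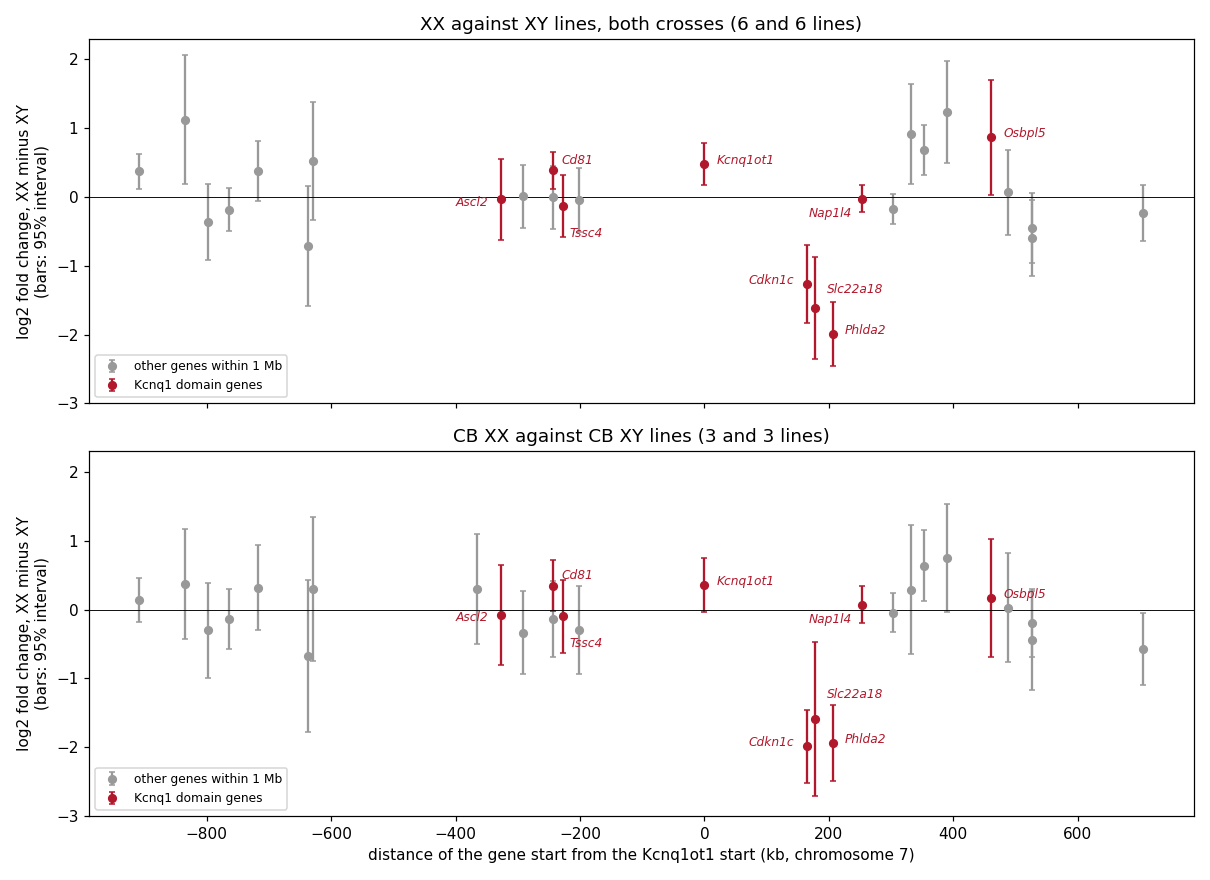
Log2 fold change of XX minus XY lines with its 95% interval (vertical axis) against the distance of each gene's start from that of Kcnq1ot1 in kb along chromosome 7 (horizontal axis), for both crosses together (upper panel) and the CB cross (lower panel). Red points are the domain's genes and grey points the other tested genes within 1 Mb. Cdkn1c, Slc22a18 and Phlda2, at 165 to 206 kb, lie at −1.27 to −1.99 in the upper panel, while Nap1l4, at 253 kb, lies at −0.03.

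The genes around and between the members were read as well. Whether *Cdkn1c*, *Slc22a18* and *Phlda2* change together as a region was not tested. Of 29 other genes that start within 1 Mb of *Kcnq1ot1*, 18 were tested between XX and XY lines over both crosses. Of these 18, 1 was called, where 5.21% of all genes tested were. That gene, *Tnfrsf22*, a decoy TRAIL receptor 353 kb away, was higher in XX lines, at 103 against 61.9 (log2 fold change 0.68, SE 0.17, adjusted p = 0.0324 by limma). The call was lost without CB XY 2 and CB XY 3 (0.69, adjusted p = 0.110) and at equal mesenchymal level (0.59, adjusted p = 0.175). Its relatives *Tnfrsf23* (1.24, adjusted p = 0.0544) and *Tnfrsf26* (0.92, adjusted p = 0.131) were not called. *Cars*, the cysteinyl-tRNA synthetase gene between *Nap1l4* and the receptors, was at −0.17 (adjusted p = 0.324). On the *Ascl2* side, *R74862* (−0.01), *Tspan32* (0.01) and *Trpm5* (−0.05) had adjusted p-values of 0.920 to 0.992. In the adjoining imprinted domain, *H19* had 5982 against 4548 and *Igf2*, the fetal growth factor gene, 1536 against 1004, with log2 fold changes of 0.38 (adjusted p = 0.286) and 0.53 (adjusted p = 0.454).

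The reciprocal crosses were compared to ask whether parental strain sets the level of the domain, with XX and XY lines weighted alike. No member was called, where 16.0% of 16261 genes tested were. At an unadjusted p of 0.05, 3 of 9 members passed and 33.2% of all genes did. The largest difference was that of *Osbpl5*, at 362 in BC and 198 in CB lines (log2 fold change 0.72, SE 0.28, adjusted p = 0.0934 by limma), and at equal mesenchymal level it was 0.18 (adjusted p = 0.682). *Phlda2* had 334 in BC and 449 in CB lines (−0.43, adjusted p = 0.114), *Tssc4* 463 and 617 (−0.42, adjusted p = 0.117), and *Ascl2* 79.2 and 113 (−0.50, adjusted p = 0.159). Without CB XX 3 *Tssc4* (−0.54, adjusted p = 0.0313) and *Ascl2* (−0.66, adjusted p = 0.0495) passed. *Kcnq1ot1* was at 0.17 (95% interval −0.11 to 0.45), *Cdkn1c* at 0.13 (−0.25 to 0.51), *Slc22a18* at −0.19 (−0.98 to 0.61), *Cd81* at 0.03 and *Nap1l4* at 0.05. No member was called at equal mesenchymal level either, where 321 of 16261 genes were, against 2605 without the covariate. The same held without CB XY 2 and CB XY 3, a fit that leaves 1 CB XY line. In BC lines the maternal allele is of the strain the reads were aligned to, and in CB lines it is the other strain, so allele and mapping cannot be told apart here.

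Within the BC cross, XX and XY lines differed in 2 members at an FDR of 0.05, where 5.70% of 16261 genes were called (1.24% lower and 4.46% higher in XX lines). *Phlda2* was lower in XX lines, at 131 ± 39.9 against 537 ± 50.9 (SD, n = 3 each), a log2 fold change of −2.04 (SE 0.26, adjusted p = 0.00123 by limma). *Osbpl5* was higher, at 503, 564 and 527 in XX lines against 310, 121 and 145 in XY lines (log2 fold change 1.56, SE 0.40, adjusted p = 0.0356 by limma). The *Osbpl5* call was lost on leaving out any of BC XX 1, 2 and 3 or BC XY 2 and 3, with adjusted p-values of 0.0565 to 0.155. In 5 of 9 members the groups did not overlap, as in 27.1% of all genes. *Cdkn1c* was at −0.55 (SE 0.25, adjusted p = 0.204), *Slc22a18* at −1.63 (SE 0.52, adjusted p = 0.0824, but 0.0184 without BC XY 1), *Kcnq1ot1* at 0.60 (SE 0.18, adjusted p = 0.0715) and *Cd81* at 0.43 (SE 0.17, adjusted p = 0.161). At equal mesenchymal level neither call remained, and 8 of all 16261 genes tested were called, where 927 were without the covariate. *Phlda2* was then at −1.54 (adjusted p = 0.258), *Slc22a18* at 0.0027 (adjusted p = 0.999), and *Osbpl5* at −0.23 (adjusted p = 0.937). *Cdkn1c* moved the other way, to −1.02 (adjusted p = 0.489), *Kcnq1ot1* was at 0.51 (adjusted p = 0.731) and *Cd81* at 0.27 (adjusted p = 0.877).

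*Osbpl5* was ordered among the lines much as the mesenchymal transcripts were. The lines with the lowest mean mesenchymal log2 levels, CB XY 2 at 7.88, BC XY 3 at 7.94, CB XX 1 at 8.25 and BC XY 2 at 8.38, had *Osbpl5* values of 93.3, 145, 121 and 121. The other 7 lines outside the BC XX group, at 9.05 to 9.76, had 206 to 310. The 3 BC XX lines, at 10.5 to 11.8, had 503 to 564. In the CB cross, where mesenchymal levels of XX and XY lines overlapped, *Osbpl5* was 121, 234 and 266 in XX and 230, 93.3 and 241 in XY lines (log2 fold change 0.17, SE 0.40, adjusted p = 0.861). Among the neighbours, 3 of 19 were called higher in BC XX than BC XY lines, *Tnfrsf23* (399 against 112), *Lsp1*, a leukocyte actin-binding protein gene (305 against 80.2), and *Ctsd*, cathepsin D (16493 against 10950), where 4.46% of all genes were. At equal mesenchymal level none of these calls remained, with *Tnfrsf23* at 0.73 (adjusted p = 0.796), *Lsp1* at 0.19 (adjusted p = 0.946) and *Ctsd* at 0.62 (adjusted p = 0.535). In the CB cross 0 of 19 were called against 3.57% of all genes, and 0 of 19 passed the test of the difference between the crosses, which 0.0738% of all genes passed. The part of the mesenchymal cells in these values was not tested.

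**Figure D3:**
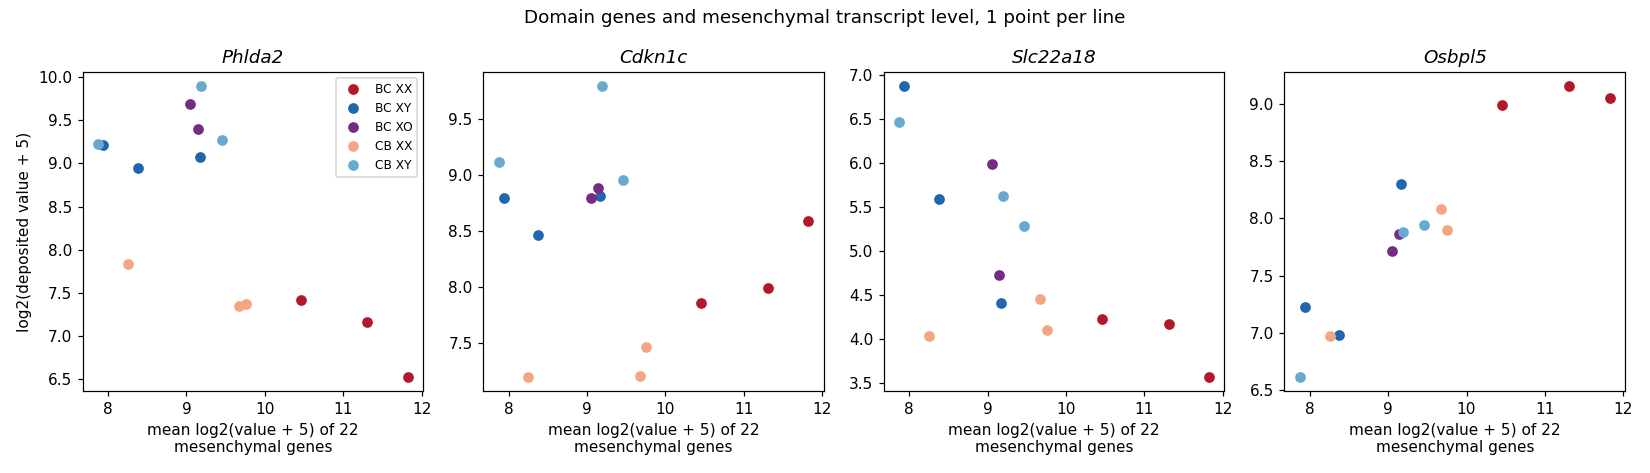
Level of 4 domain genes as log2(deposited value + 5) (vertical axes) against the mean log2(value + 5) of 22 mesenchymal genes (horizontal axes), with 1 point per line, coloured by group. For Phlda2 the CB XX lines, at mesenchymal levels of 8.25 to 9.76, sit below the XY and XO lines at 7.88 to 9.46, while Osbpl5 points climb from 93.3 to 564 in value along the axis.

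Within the CB cross, where mesenchymal levels were 8.25 to 9.76 in XX and 7.88 to 9.46 in XY lines, *Cdkn1c* and *Phlda2* were both lower in XX lines, 2 of 9 members against 3.57% of genes called (1.46% lower). *Cdkn1c* was 152 ± 16.9 in XX and 639 ± 210 in XY lines (SD, n = 3 each), 3.97-fold lower (log2 fold change −1.99, SE 0.25, adjusted p = 0.00266 by limma). *Phlda2* was 181 ± 36.8 and 717 ± 198, 3.85-fold lower (−1.94, SE 0.26, adjusted p = 0.00297). Both passed an FDR of 0.01, as 0.701% of genes did. At equal mesenchymal level they were at −2.06 (adjusted p = 0.00236) and −1.87 (adjusted p = 0.00373). Without CB XY 2 and CB XY 3 they were at −2.49 and −2.37. That fit leaves 1 XY line, CB XY 1, assumed to vary like the other groups. CB XY 1 had the highest *Cdkn1c* (879) and *Phlda2* (945) values of the XY lines. *Slc22a18* did not overlap between the groups either, as 23.2% of genes, but was not called (−1.59, SE 0.52, adjusted p = 0.115). *Kcnq1ot1* was at 0.35 (SE 0.18, adjusted p = 0.322).

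The difference between crosses in the sex effect was tested as an interaction. No member passed, and 0.0738% of genes did (12 of 16261). *Cdkn1c* had the largest member estimate, with XX minus XY 1.44 greater in BC than in CB lines (SE 0.35, 95% interval 0.69 to 2.19, unadjusted p = 0.00102, adjusted p = 0.204 by limma). Without CB XY 2 and CB XY 3, which leaves 1 CB XY line, this estimate was 1.95. At equal mesenchymal level it was 1.04 (adjusted p = 0.573 by limma). Among XX lines *Cdkn1c* was 285 ± 82.3 in BC and 152 ± 16.9 in CB lines (SD, n = 3 each; log2 fold change 0.85, SE 0.25, adjusted p = 0.0525, and 0.50 with adjusted p = 0.799 at equal mesenchymal level), and among XY lines 411 ± 54.1 and 639 ± 210 (−0.59, SE 0.25, adjusted p = 0.219). For *Phlda2* the interaction was −0.10 (95% interval −0.87 to 0.68). *Osbpl5* was called higher in BC XX than in CB XX lines (531 against 207, log2 fold change 1.41, adjusted p = 0.0471 by limma), the only member called there, where 7.15% of genes were. The call was lost in 11 of 14 fits that each left out a line, with adjusted p-values of up to 0.223. Among these were fits without an XY or XO line, which is in neither group. There the estimate stayed at 1.41 and the adjusted p-values were 0.0503 to 0.0641 by limma. At equal mesenchymal level *Osbpl5* was at 0.10 (adjusted p = 0.960). With that covariate 40 of all 16261 genes tested were called, where 1162 were without it. Between BC XY and CB XY lines no member was called, and 0.640% of genes were.

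**Figure D4:**
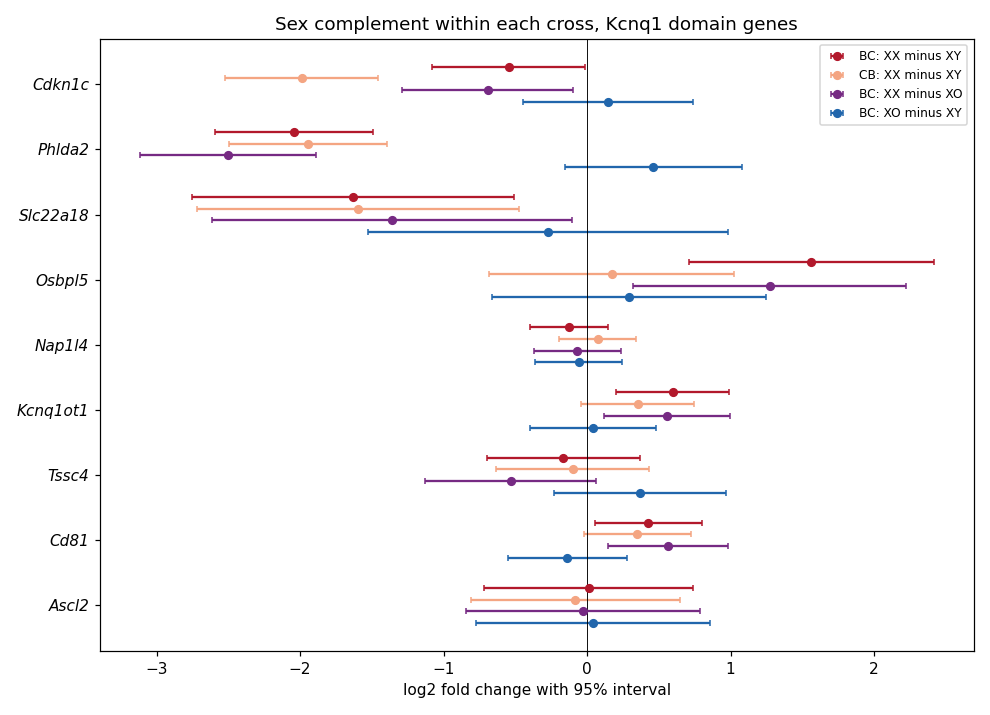
Log2 fold change with its 95% interval (horizontal axis) for the 9 tested genes (rows) between XX and XY lines of each cross and, in the BC cross, between XX and XO and between XO and XY lines (colours). The Phlda2 estimates of the 3 comparisons with XX lines lie between −1.94 and −2.50, and that of XO minus XY lines is 0.46.

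The XO lines carry a single X chromosome and no Y, so that XX and XO lines differ in the number of X chromosomes and not in a Y. An XX line holds an X of each parent and strain, and an XO line an X of 1 of them. Which X the XO lines kept is not given in the sources used here. The contrast of XX with XO lines exists only in the BC cross, with mean mesenchymal log2 levels of 10.5 to 11.8 in XX and 9.05 and 9.15 in XO lines. The number of X chromosomes and the mesenchymal level cannot be told apart in it. *Phlda2* was lower in XX than in XO lines, at 131 ± 39.9 (SD, n = 3) against 817 and 671 (log2 fold change −2.50, SE 0.29, adjusted p = 0.00261 by limma), the single member called where 4.66% of genes were. The mesenchymal covariate ended the call (−2.11, adjusted p = 0.0560 by limma). Leaving out BC XO 1 ended it too, at an estimate of −2.36, in a fit that leaves 1 XO line. *Cdkn1c* was at −0.69 (adjusted p = 0.148), *Slc22a18* at −1.36 (adjusted p = 0.176), *Kcnq1ot1* at 0.56 (adjusted p = 0.120), *Cd81* at 0.56 (adjusted p = 0.0996) and *Osbpl5* at 1.27 (adjusted p = 0.105). At equal mesenchymal level *Slc22a18* was at −0.09, *Osbpl5* at −0.12 and *Cdkn1c* at −1.06, with adjusted p-values of 0.341 to 0.976. With that covariate 9 of all 16261 genes tested were called, where 758 were without it. Groups did not overlap in 7 of 9 members, and in 47.2% of all genes with these small groups.

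Between XO and XY lines of the BC cross no member was called, and 1 of 16261 genes was (0.00615%). No member passed an unadjusted p of 0.05, which 1.49% of genes did. The estimates were 0.46 for *Phlda2* (95% interval −0.15 to 1.08), 0.15 for *Cdkn1c* (−0.45 to 0.74), −0.27 for *Slc22a18* (−1.53 to 0.98) and 0.04 for *Kcnq1ot1* (−0.40 to 0.48). These intervals, from 2 XO and 3 XY lines, do not show that the groups are alike. The comparisons of BC XX with BC XY and with BC XO lines share the BC XX lines.

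Genes known to maintain imprints or silence the paternal domain were read from a list of 15. None was called between XX and XY lines over both crosses, where the list's median log2 fold change was −0.11. *Dnmt1*, the maintenance methyltransferase, was 11748 in XX and 13405 in XY lines (−0.21, adjusted p = 0.337 by limma), and its partner *Uhrf1* 13541 and 17629 (−0.42, adjusted p = 0.203). *Zfp57*, which binds methylated imprint control regions, was 5101 and 4096 (0.32, adjusted p = 0.157), and *Trim28*, its corepressor, 52532 and 62453 (−0.27, adjusted p = 0.449). *Rnf2*, a Polycomb ubiquitin ligase, was the single gene of the list called within the CB cross, higher in XX lines (4058 against 2539, log2 fold change 0.68, adjusted p = 0.0223), where 3.57% of all genes were called. It was also higher in BC XY than CB XY lines (4202 against 2539, log2 fold change 0.72). Neither call of *Rnf2* was kept without CB XY 2 and CB XY 3, which leaves 1 CB XY line. The estimates were then 0.84 and 0.89. Between the crosses 4 of the 15 were called, where 16.0% of all genes were. *Rnf2* and *Zfp445*, a zinc finger protein of imprint maintenance, were higher in BC lines (0.42 and 0.34), and *Uhrf1* and the histone H3 lysine methyltransferase gene *Ehmt2* were lower (−0.46 and −0.61). At equal mesenchymal level their adjusted p-values were 0.0652 (*Rnf2*) to 0.308 (*Uhrf1*) by limma, so that none of these calls was kept. With that covariate 321 of all 16261 genes were called, where 2605 were without it. None was kept without CB XY 2 and CB XY 3 either, which leaves 1 CB XY line. The estimates were then 0.51 (*Rnf2*), 0.37 (*Zfp445*), −0.43 (*Uhrf1*) and −0.71 (*Ehmt2*).

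Related genes outside the domain were read beside the members. *Cdkn1b*, which encodes the related inhibitor p27, was 440 in CB XX and 1068 in CB XY lines (log2 fold change −1.38, SE 0.32, adjusted p = 0.0278 by limma). Without CB XY 2 and CB XY 3, which leaves 1 CB XY line, the call was lost and the estimate was −1.27. Over both crosses *Cdkn1b* was 425 in XX and 824 in XY lines (−0.93, adjusted p = 0.0740). *Cdkn1a*, the p21 gene, was at 0.14 (adjusted p = 0.617). *Phlda1* was at −0.28 (adjusted p = 0.649) and *Phlda3* at 0.22 (adjusted p = 0.675), and *Phlda3* was lower in BC than CB lines (−0.72, adjusted p = 0.0331 by limma). At equal mesenchymal level *Phlda3* was at −0.59 between the crosses (adjusted p = 0.202). Without CB XY 2 and CB XY 3, which leaves 1 CB XY line, it was at −0.64 and not called. *Prdm14*, a germline and pluripotency regulator, was 799 in XX and 398 in XY lines (0.90, adjusted p = 0.0629 by limma). It was called in the CB cross (1061 against 461, 1.13, adjusted p = 0.0328). Without CB XY 2 and CB XY 3, which leaves 1 CB XY line, the *Prdm14* call was lost and the estimate was 1.21.

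Placental and differentiation markers were checked because several members are placental genes. Of 8 trophoblast markers 6 were tested between XX and XY lines and 0 were called, and *Tpbpa*, a defining marker of spongiotrophoblast, was at 0 in all lines of 4 groups. Their summed value was 5237 to 8999 in BC XX, 8133 to 12504 in BC XY, 7826 to 15634 in XO, 682 to 4223 in CB XX and 2824 to 6497 in CB XY lines. Of 10 endoderm markers 8 were tested between XX and XY lines, 2 of them with a higher and 6 with a lower estimate in XX lines, and 1 was called, *Lama1*, lower in XX lines (3434 against 6655). The *Lama1* call was lost without CB XY 2 and CB XY 3 (adjusted p = 0.158) and at equal mesenchymal level (adjusted p = 0.421). *Dab2* had 390 in XX and 232 in XY lines and *Cubn* 70.8 and 51.8 (adjusted p = 0.178 and 0.488), and *Gata4* 76.5 and 241 (adjusted p = 0.128). In the CB cross, where 3.57% of all genes were called, *Foxa2* was called lower in XX lines (20.0 against 115, log2 fold change −2.14, and −3.07 without CB XY 2 and CB XY 3). Mean values of *Gata4*, *Gata6*, *Sox17*, *Lama1* and *Cubn* were also lower in XX lines there. Those of *Dab2* (346 against 284) and *Sox7* (114 against 91.2) were higher. In the BC cross *Foxa2* was higher in XX lines (114 against 85.6). Of 6 primitive streak markers 1 was called in the CB cross, *T* (brachyury), at 155 in XX and 1233 in XY lines (log2 fold change −3.47, adjusted p = 0.0387 by limma). Without CB XY 2 and CB XY 3, which leaves 1 CB XY line, the call was lost and *T* was at −4.37. The summed values of the list in the CB cross were 415 to 1122 in XX and 1049 to 5172 in XY lines. Between BC XX and CB XX lines *Krt8*, *Krt18*, *Gata6*, *Sox17*, *Foxa2* and *T* were called higher in BC XX lines, where 7.15% of all genes were called. None of these calls was kept at equal mesenchymal level (adjusted p = 0.678 to 0.764 by limma), where 40 genes were called. The part of trophoblast, endoderm or streak cells in the *Cdkn1c* and *Phlda2* values was not tested.

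The genes whose levels were most like those of 5 members over the 14 lines (the 3 closest for each), by Pearson correlation of log2(value + 5) among 16261 genes, all lay outside the domain. For *Phlda2* they were *Nt5dc2* (r = 0.966), *Agrn* (0.957) and *Myl6b* (0.951). For *Cdkn1c* they were *Nrarp* (0.896), *Cdk6* (0.895) and *Fut11* (0.884), and for *Slc22a18* *Mapk13* (0.964), *Crb3* (0.956) and *Cacna1b* (0.954). *Kcnq1ot1* was most like *Megf11* (0.910), *Zufsp* (0.902) and *Vps13a* (0.899), and *Ascl2* most like *Clptm1* (0.909), *Mrpl38* (0.903) and *Drg2* (0.893). These are descriptions over 14 lines that share the split between XX and the other lines.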

How the data were processed

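Total RNA of 14 ES cell lines was depleted of ribosomal RNA and sequenced as single-end reads from stranded libraries. The submitters' processing notes name TopHat2, Cuffdiff and the mm9 build. The authors deposited 1 signal value per gene and line, reads per gene brought to a common scale before deposit. The counter and its strand setting are not given in the sources used here. Because the values are scaled, the tests for read counts named in the design were replaced by limma (3.58.1, R 4.3.3, with Python 3.11.15 for tables) on log2(value + 5) with a variance trend and Benjamini-Hochberg adjustment over all genes tested. Fold changes are on that scale, which understates changes of low genes. Genes were tested with a value of at least 10 in 6 lines (XX against XY) or 2 lines (a model of 5 groups, from which all other comparisons come). A further 15 genes were dropped because they were 0 throughout a group but reached 100 in other lines.

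The members, gene lists and tests were chosen with earlier results of these data known. Named genes were all members, neighbours within 1 Mb that were called or lie between members, 4 imprint regulators and others of their list when called, 5 relatives (1 is not reported here), *H19*, *Igf2* and *Prdm14*, and for 5 members the 3 genes most alike. Marker genes were named after their values were seen. The mesenchymal covariate is the mean log2 level of 22 genes. CB XX lines are numbered by column order, since their names could not be matched to single samples. Exon lengths and positions are from Gencode vM1 (NCBIM37), in which 9 members were found. The main fits were checked on simulated data, apart from XO against XY lines and the crosses within XX or within XY lines. The alternative fits and the other steps were not checked in this way.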

Additional observations from a re-analysis of the deposited data

Results flagged for a closer look

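*Phlda2* in the line CB XY 1 stood apart from the other 5 XY lines. Its value was 945, and the gap to the next line, CB XY 3 at 614, was 0.653 of the range of the 6 lines on the log2(value + 5) scale, above the critical value of 0.625 of Dixon's test. The same line had the highest *Cdkn1c* value of all lines, 879, and the highest median deviation of other chromosome 7 genes, 0.15 on the log2 scale. It was 1 value among 20 sets checked (10 genes in XX and in XY lines), and chance alone is expected to mark about 1 in 20. Without CB XY 1 the *Phlda2* log2 fold change between XX and XY lines over both crosses was −1.87 (adjusted p = 0.0015 by limma).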

How the results depend on the processing

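Counts of members called are compared here with those of the report, which were 3 for XX against XY lines, 2 for BC XX against BC XY, 2 for CB XX against CB XY, 1 for BC XX against BC XO, 1 for BC XX against CB XX lines and 0 for the other comparisons. Over all alternatives 174 of 205 such counts stayed within 1.5 times the value of the report, among them every count within the CB cross. At an FDR of 0.01 the first count was 1, that of BC XX against BC XY 1 and that of BC XX against CB XX 0. Without CB XY 2 and CB XY 3 the first was 1. Without a filter on low values BC XX against BC XY gave 1 and BC XX against CB XX 0, and a pseudocount of 1 also gave 0 there, TMM size factors 2. With the mesenchymal level as a covariate BC XX against BC XY, BC XX against BC XO and BC XX against CB XX lines all gave 0. Calls over all 16261 genes tested fell with it too, from 927 to 8, from 758 to 9 and from 1162 to 40. The BC XX lines are those with the highest mesenchymal levels, and the cause was not tested. With the level of other chromosome 7 genes subtracted, chosen after seeing the data, BC against CB gave 1 (*Osbpl5*), BC XX against BC XO 2 and BC XX against CB XX 2. Calls over all genes between BC XX and BC XO lines rose with it, from 758 to 1147 of 16261. Leaving out each line in turn gave 3 to 5 for XX against XY (5 without CB XX 1), 0 to 2 for BC against CB, 1 to 3 for BC XX against BC XY, 0 to 1 for BC XX against BC XO and 0 to 1 for BC XX against CB XX lines. Without CB XX 1 calls over all genes between XX and XY lines rose as well, from 797 to 1746 of 15445. Over the 14 such fits, of which 2 left out an XO line that is not in this comparison, *Phlda2*, *Cdkn1c* and *Slc22a18* kept their calls between XX and XY lines, with adjusted p-values from limma of up to 0.00368, 0.0383 and 0.0446.

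Of 1764 fold changes of single members under the alternatives, 1713 kept their status as called or not, 29 lost a call, 16 gained 1 and 6 turned. A turn is a change of sign, counted only for values called or with an unadjusted p under 0.05 by limma. Changes of sign of other values are among the 1713. Of the 6, 5 were *Osbpl5* and 1 *Slc22a18*, all with the mesenchymal covariate. *Osbpl5* was then at −0.18 between XX and XY lines (−0.11 with the cross as well, chosen after seeing the data), −0.23 between BC XX and BC XY, −0.12 between BC XX and BC XO and −0.15 in the interaction. *Slc22a18* was at 0.0027 between BC XX and BC XY lines. Counts over all genes moved as well. Between XX and XY lines 797 genes were called, 308 without CB XY 2 and CB XY 3, 493 with the mesenchymal and 1697 with the cross covariate. Of the calls in that comparison 61.7% were higher in XX lines, and 80.4% with chromosome 7 subtracted.

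Replicate numbers shared by labels do not pair the lines, since deviations of same-numbered BC XX and BC XY lines correlated at −0.17, 0.25 and −0.05. With a replicate block 0 members were called between BC XX and BC XY lines (*Phlda2* −2.04, adjusted p = 0.0752 by limma), and 0 of all 15420 genes tested were. Between BC XY and CB XY lines 0 members were called with the block, and 290 of 15340 genes were. Without the block the same 6 BC XX and BC XY lines gave 2 members. Comparisons with CB XX lines had no such fit, since their columns could not be matched to single samples, and those with the 2 XO lines, which share only 2 numbers with the other groups, were not fitted with a block. The tests for read counts meant as further alternatives were not run, because the values are scaled. Precision is limited by 2 or 3 lines a group, and for *Kcnq1* and *Slc22a18* also by depth.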
